A study of Mus musculus with 2 samples.

Results

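The genes of the NADPH oxidase and of its counterweight, the antioxidant enzymes, were examined for ETS1 and ETS2 peaks in aortic endothelial cells. The set holds 9 of 21887 protein-coding genes and was taken by name, with earlier results of these data known. Its 4 oxidase subunit genes are Nox4, Cyba, Ncf1 and Ncf4, and its 5 antioxidant enzyme genes are Sod1, Sod2, Sod3, Hmox1 and Cat. A peak belonged to a gene when at least 1 bp of it lay over the RefSeq span of the gene or the 10 kb on either side, in mm10 coordinates. The cells were isolated from the aorta of wild-type mice and cultured, with no further treatment named. Their chromatin was precipitated with 10 µg of an antibody, against ETS1 in one group and ETS2 in the other, and sequenced (ChIP-seq), giving 1 library per antibody. Both groups share the genotype and a complete medium (DMEM-F12 with 20% serum and ECGS, a growth supplement, besides heparin). The strain, age and number of animals are not given in the sources used here. Peak lists do not measure expression, so the endothelial label could not be set against marker expression.

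The NADPH oxidase is a membrane enzyme that passes electrons from NADPH to oxygen and makes superoxide or hydrogen peroxide. NOX4 is the catalytic subunit abundant in endothelium, CYBA (p22phox) is its membrane partner, and NCF1 (p47phox) and NCF4 (p40phox) are cytosolic subunits best known from phagocytes. Superoxide dismutases turn superoxide into hydrogen peroxide, in the cytosol (SOD1), in mitochondria (SOD2) and outside the cell (SOD3). Catalase breaks down hydrogen peroxide, and haem oxygenase 1, the product of Hmox1, degrades haem and is induced by oxidative stress. ETS1 and ETS2 are related transcription factors that bind DNA around a GGAA core.

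The RefSeq promoter sequences of Sod1, Sod2 and Cyba are shown because a peak reached these 3 windows and peaks of both lists met at these starts. Each window runs from 250 bases before to 50 bases after the listed transcription start (GRCm38.p6, the assembly of mm10) and is written 5′ to 3′ along the gene. Capitals mark the ETS core GGAA, or TTCC where it lies on the other strand. The Sod1 window is chr16:90220512-90220811 on the plus strand, and the ETS2 peak covers its last 67 bases. The Sod2 window is chr17:13007589-13007888 on the plus strand, and an ETS1 peak covers its last 50 bases. The Cyba window is chr8:122432891-122433190 on the minus strand, with its last 55 bases under the ETS1 peak and its last 29 under the ETS2 peak.
Sod1: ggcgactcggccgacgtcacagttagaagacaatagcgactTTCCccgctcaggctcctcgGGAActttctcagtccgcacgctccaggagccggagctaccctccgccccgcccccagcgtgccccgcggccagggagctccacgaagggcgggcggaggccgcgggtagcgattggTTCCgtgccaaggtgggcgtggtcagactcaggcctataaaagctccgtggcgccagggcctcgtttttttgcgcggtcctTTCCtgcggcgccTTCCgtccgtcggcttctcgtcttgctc
Sod2: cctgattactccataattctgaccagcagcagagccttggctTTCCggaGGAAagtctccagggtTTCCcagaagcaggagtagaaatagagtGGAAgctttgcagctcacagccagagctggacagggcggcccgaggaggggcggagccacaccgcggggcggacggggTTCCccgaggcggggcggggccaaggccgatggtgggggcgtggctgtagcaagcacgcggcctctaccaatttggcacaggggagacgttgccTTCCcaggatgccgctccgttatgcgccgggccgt
Cyba: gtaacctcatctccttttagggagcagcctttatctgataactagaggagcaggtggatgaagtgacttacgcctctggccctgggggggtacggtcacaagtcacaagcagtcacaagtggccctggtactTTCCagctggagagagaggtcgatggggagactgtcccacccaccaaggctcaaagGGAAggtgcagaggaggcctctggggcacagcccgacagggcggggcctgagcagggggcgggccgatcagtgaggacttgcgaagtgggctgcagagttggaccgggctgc

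Promoter windows were given for 6 members, namely Nox4, Cyba, Ncf1, Sod1, Sod2 and Cat, and not for Ncf4, Sod3 and Hmox1. Matches were counted on both strands. The GGAA core occurred 5 times in the Sod1 window, 6 times in that of Sod2, 4 times each in those of Nox4 and Cat, 2 times in that of Cyba and 1 time in that of Ncf1. It was present in 96.0% of all 32851 promoter windows, with a median of 3 matches, so its presence does not set these genes apart. Under the peaks, Sod1 had matches 9 and 22 bp after the start, both inside the ETS2 peak, and Sod2 had a match 15 bp after the start inside an ETS1 peak. The parts of the Cyba window under its peaks held no match, and the greater part of each peak lies downstream of these windows and was not searched. The longer ETS site CCGGAA, which contains the core, was found once, in the Sod2 window and outside the peaks of both lists (14.9% of all windows hold it). GGAAGT, which also contains the core, was found once, in the Nox4 window (23.8%), also outside the peaks of both lists. TGACNNNGC, the core of the antioxidant response element read by NRF2, was found once, 56 bp before the Sod1 start (12.4%), outside both peaks. The AP-1 site TGANTCA was found in none of the 6 windows (7.81%). The content of G and C was 66.7% for Sod1, 64.3% for Sod2 and 60.7% for Cyba, and 68.3% for Nox4, 62.0% for Cat and 54.0% for Ncf1, whose windows no peak reached. The median over windows of protein-coding genes was 56.3%.

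The deposited lists held 77295 ETS1 and 63556 ETS2 peaks, called from 143778022 and 134607908 tags, with a threshold of 30 tags per peak in each library and no control library in the calling command. The rows carry no peak height, so the place of a peak in its list is given as a percentage of the rows, with the first row near 0%. Sharing with the other list was commoner in the first 50% of the rows than in the rest, at 21.6% against 10.3% for ETS1 and 25.3% against 13.5% for ETS2. With 1 library per antibody there is no spread between replicates, and no difference between the antibodies or the genes was tested.

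Peaks of at least 1 list lay over all 9 loci, as over most protein-coding genes. The matching share of protein-coding genes for either list was not computed, and it is higher than the 65.5% of the ETS1 list alone. Cyba, Sod1 and Sod2 had a site shared by both lists at the start (19.7% of protein-coding genes). An ETS1 peak lay over 8 of the 9 loci, all but Sod3, beside 65.5% of all protein-coding genes. An ETS2 peak lay over 7 of 9, all but Ncf1 and Ncf4, beside 64.5% of protein-coding genes. Both lists had a peak over 6 loci (55.8% of protein-coding genes), and 4 loci held a shared site, where an ETS1 and an ETS2 peak overlap by at least 1 bp (35.6%). In all, 14 ETS1 and 15 ETS2 peaks fell in these windows, of which 8 and 8 lay inside a gene span. These counts are small, and each share moves by over 10 percentage points with 1 gene.

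**Figure D1:**
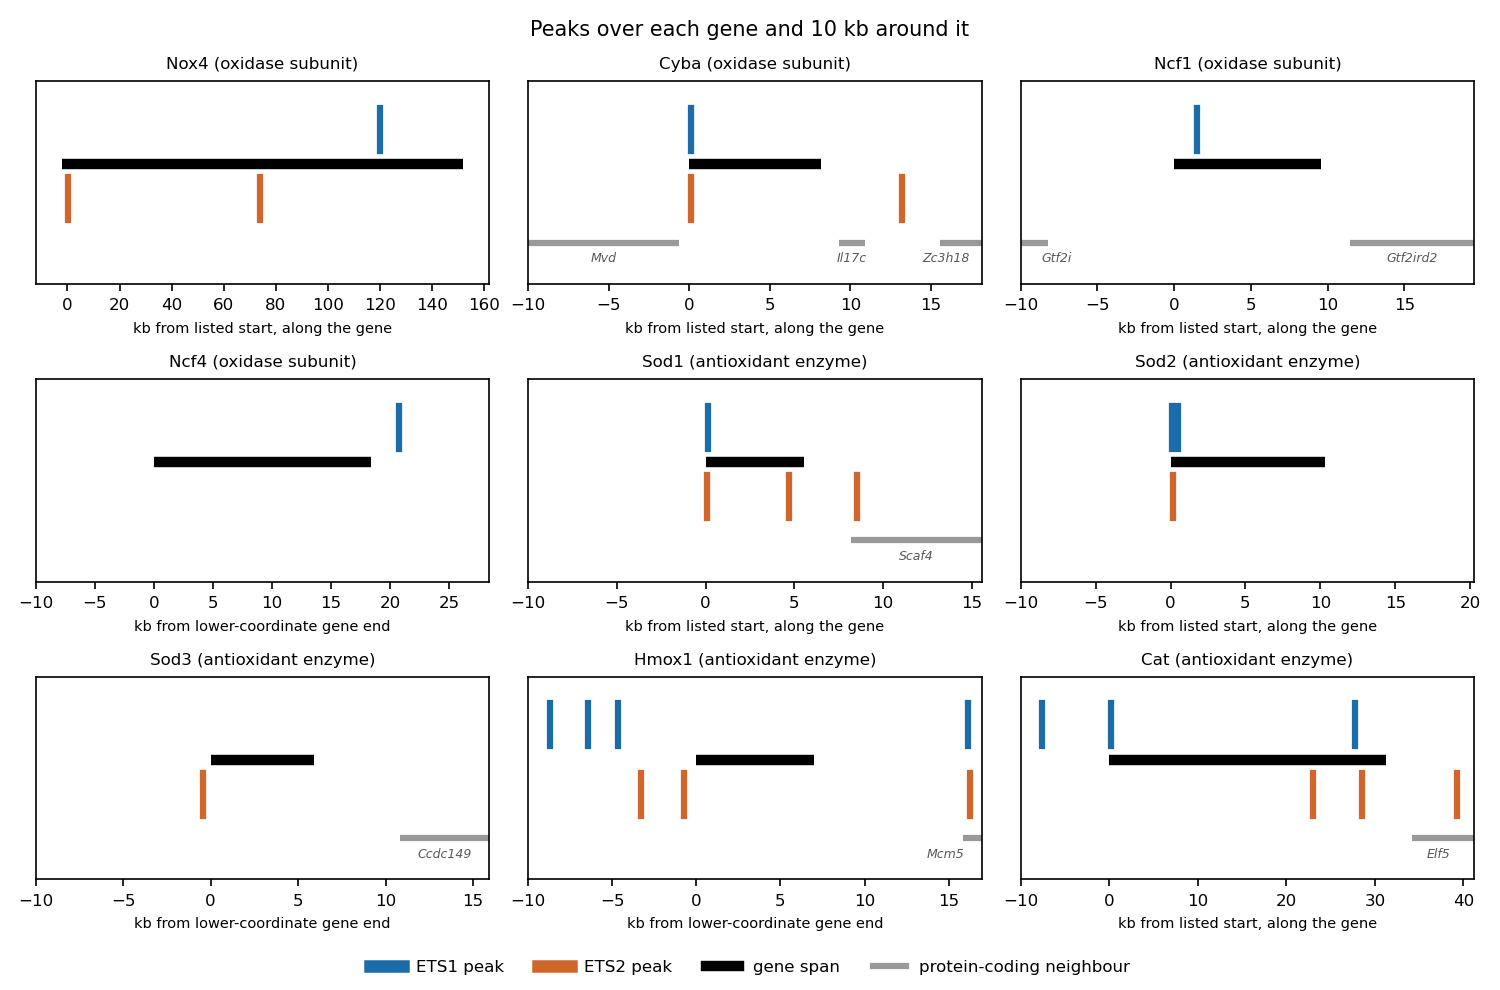
Positions of ETS1 peaks (blue, above the gene) and ETS2 peaks (orange, below) over each gene span (black) and 10 kb around it, in kb from the listed start along the gene, or from the lower-coordinate end for Ncf4, Sod3 and Hmox1. Grey bars are protein-coding neighbours, and the horizontal scales differ between panels; peaks of both lists stand together at the starts of Cyba, Sod1 and Sod2 and at the Mcm5 end in the Hmox1 window.

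A peak centre within 1 kb of a start marked 4 members in the ETS1 list (Cyba, Sod1, Sod2 and Cat), beside 38.9% of protein-coding genes. In the ETS2 list 6 members were marked (Nox4, Cyba, Sod1, Sod2, Sod3 and Hmox1), beside 40.1%. For a gene with no listed start, either annotated end was used, which applies to Ncf4, Sod3 and Hmox1 and to 4395 of the protein-coding genes. A shared site at the start was found at Cyba, Sod1 and Sod2, beside 19.7% of protein-coding genes. Only Ncf1 and Ncf4 had no peak of either list within this distance. The share of all protein-coding genes with a peak of either list there was not computed, and it is higher than the 40.1% of the ETS2 list alone.

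**Figure D2:**
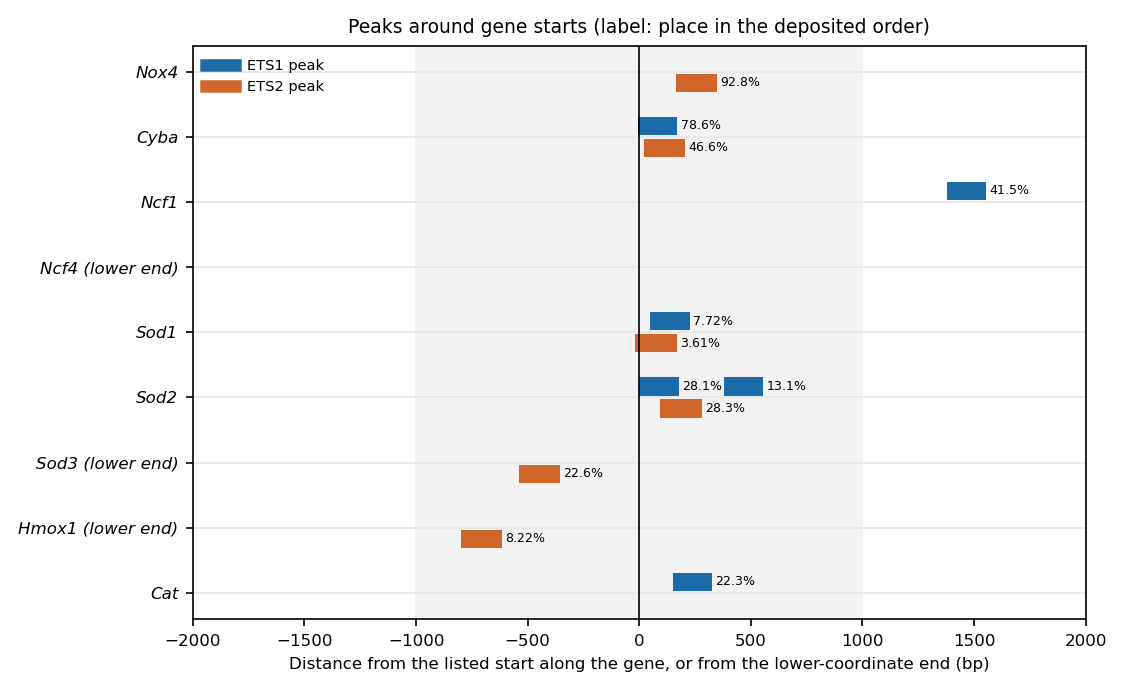
Peaks within 2 kb of the listed start of each member (0 on the horizontal axis, distance in bp along the gene), or of the lower-coordinate end for Ncf4, Sod3 and Hmox1; blue bars are ETS1 peaks, orange bars ETS2 peaks, and labels give the place in the deposited order. The shaded band is the 1 kb on either side, and at Nox4, Cyba, Sod1, Sod2 and Cat each bar in it has its centre after the start.

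Nox4, the catalytic subunit, had few peaks for the length of its locus beside all protein-coding genes. Beside those of chromosome 7 it ranked near the middle, but its density lay below their mean in both lists. Its window of 174.3 kb on chromosome 7 (gene at 87244430 to 87398710) held 1 ETS1 peak and 2 ETS2 peaks, or 0.0574 and 0.115 peaks per 10 kb. One ETS2 peak (87246813 to 87246999) was centred 257 bp after the listed start, at 92.8% of the order near the end of the list. The other ETS2 peak lay 74038 bp and the ETS1 peak 119943 bp into the gene, 45905 bp apart from each other. The region around Nox4 was nearly empty in both lists: the gene with 1 Mb on each side held 1 ETS1 and 3 ETS2 peaks. Among protein-coding genes of chromosome 7, the share with a locus peak was 39.5% for ETS1 and 52.7% for ETS2. Their median density was 0.0 ETS1 and 0.149 ETS2 peaks per 10 kb, beside 0.336 and 0.279 over all protein-coding genes. By density, Nox4 stood at percentiles 61.21 (ETS1) and 48.79 (ETS2) of its chromosome. Relative to the mean density of coding loci on chromosome 7, its values were 0.291 (ETS1) and 0.297 (ETS2).

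Cyba, the membrane partner of NOX4, was the oxidase gene with a shared site at its start. On chromosome 8 (gene at 122424771 to 122432940, minus strand) the ETS1 peak at 122432769 to 122432945 was centred 83 bp after the start. The ETS2 peak at 122432733 to 122432919 was centred 114 bp after it. They overlap by 151 bp and lie late and midway in their lists, at 78.6% and 46.6%. A further ETS2 peak 13221 bp from the start was nearer to an end of Il17c, a cytokine gene, than to Cyba. Cyba stands in a crowded region, with 290 ETS1 and 169 ETS2 peaks within 1 Mb. At 0.355 ETS1 peaks per 10 kb, its own window lay below the chromosome 8 median of 0.832. At 0.71 ETS2 peaks per 10 kb it lay above the median of 0.409.

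The cytosolic subunit genes were marked in the ETS1 list alone. Ncf1 (chromosome 5, 134220053 to 134229628) had 1 ETS1 peak, at 134228072 to 134228248, centred 1465 bp after its start and at 41.5% of the order. Ncf4 (chromosome 15, 78244164 to 78262582) had 1 ETS1 peak, at 78264828 to 78265004, which lies 2246 bp outside the gene and at 86.3% of the order. ETS2 peaks were absent from both windows. On chromosomes 5 and 15, 70.8% and 76.2% of protein-coding genes had an ETS2 peak over the locus, and 52.0% and 89.3% an ETS1 peak. At 0.338 ETS1 peaks per 10 kb, Ncf1 lay above its chromosome's median of 0.0593. Ncf4, at 0.26, lay below its chromosome's median of 0.889. The nearest ETS2 peak was centred 36448 bp from the Ncf1 peak and 86435 bp from the Ncf4 peak, although 155 ETS2 peaks lay within 1 Mb of Ncf4. A list that stops at a tag threshold does not show that a site had no signal.

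Sod1, the cytosolic dismutase, carried the earliest-placed peaks of the set. The ETS2 peak at its start (chromosome 16, 90220745 to 90220931) stood at 3.61% of the order and the ETS1 peak (90220812 to 90220988) at 7.72%. Their centres lay 76 and 138 bp after the start and the peaks overlap by 120 bp. Sod1 also had an ETS2 peak 4704 bp into the gene, at 99.2% of the order, and one centred 364 bp from an end of the neighbouring Scaf4, a gene for an RNA polymerase II binding protein. The Sod1 window of 25.57 kb thus held 1.17 ETS2 peaks per 10 kb, beside a median of 0.243 over protein-coding genes of chromosome 16. The ETS1 value of 0.391 lay below the chromosome's median of 0.622.

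Sod2, the mitochondrial dismutase, had all its peaks at the start, in both lists. On chromosome 17 the ETS1 peak at 13007839 to 13008015 and the ETS2 peak at 13007932 to 13008118 overlap by 84 bp, with centres 88 and 186 bp after the start. They stood at 28.1% and 28.3% of their lists. A second ETS1 peak (13008218 to 13008394), centred 467 bp after the start, stood earlier, at 13.1%, and met no ETS2 peak. At 0.66 and 0.33 peaks per 10 kb, Sod2 lay near the medians of its chromosome (0.773 for ETS1 and 0.34 for ETS2).

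Sod3, the extracellular dismutase, had a single peak, in the ETS2 list. It lies on chromosome 5 at 52363263 to 52363449, centred 448 bp outside the lower end of the gene and at 22.6% of the order. No ETS1 peak lay nearer to it than 217356 bp. Chromosome 5 is sparse in ETS1 peaks: 52.0% of its protein-coding genes had one over the locus, and 13 ETS1 and 35 ETS2 peaks lay within 1 Mb of Sod3.

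Hmox1 had the densest ETS1 window of the set, and its peaks lay outside the gene. The gene lies on chromosome 8 at 75093618 to 75100593, and the inducible mouse gene is known for stress-responsive enhancers upstream. ETS1 peaks were centred 4683, 6451 and 8688 bp outside its lower end, at 24.1%, 43.2% and 59.2% of the order. ETS2 peaks were centred 707 and 3313 bp outside the same end, at 8.22% and 62.9%. None of these overlaps a peak of the other list, and the closest pair of centres is 1370 bp apart. The shared site in this window, at 75109698 to 75109874 (ETS1) and 75109760 to 75109946 (ETS2), lies 318 and 385 bp from an end of Mcm5, a replicative helicase gene, and over 9 kb from Hmox1. The gene and 1 Mb on each side held 25 ETS1 and 6 ETS2 peaks, so 4 of those 25 and 3 of those 6 lay in the window of 26.98 kb. With the site by Mcm5 included, the densities were 1.48 ETS1 and 1.11 ETS2 peaks per 10 kb. The medians of chromosome 8 were 0.832 and 0.409, and Hmox1 stood at percentiles 73.01 (ETS1) and 85.38 (ETS2) of that chromosome.

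Cat, encoding catalase, had 3 peaks in each list and no shared site. Its ETS1 peak at the start (chromosome 2, 103484827 to 103485003) was centred 238 bp after it and stood at 22.3%, while no ETS2 peak lay nearer to this peak than 22730 bp. Another ETS1 peak lay 7589 bp before the start, at 17.2%, and the third 27753 bp into the gene, at 73.6%. The ETS2 peaks lay 22968 and 28531 bp into the gene, at 29.6% and 40.0%, and beyond it, at 89.7%, nearer to Elf5, a gene of an epithelial ETS factor. The nearest ETS1 and ETS2 centres were 778 bp apart.

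Set side by side, the antioxidant enzyme loci held more peaks than the oxidase subunit loci, although their windows are shorter in sum. The 5 enzyme windows, 160.0 kb in all, held 10 ETS1 and 11 ETS2 peaks, and the 4 subunit windows, 270.4 kb in all, held 4 and 4. Of these peaks, 5 were nearest to another gene. They were those by Mcm5 (both lists), Scaf4 and Elf5 in enzyme windows and by Il17c in the Cyba window. Summed densities were 0.625 ETS1 peaks per 10 kb for the enzymes (95% exact Poisson interval 0.3 to 1.15) and 0.148 for the subunits (0.0403 to 0.379). For ETS2 they were 0.687 (0.343 to 1.23) and 0.148 (0.0403 to 0.379). These intervals cover counting error only, and they overlap in both lists. Without Nox4, whose window makes up most of the subunits' length, the subunit densities were 0.312 (0.0643 to 0.912) for ETS1 and 0.208 (0.0252 to 0.751) for ETS2. Without Hmox1, the densest ETS1 window, the enzyme densities were 0.451 (0.166 to 0.982) for ETS1 and 0.601 (0.26 to 1.18) for ETS2.

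**Figure D3:**
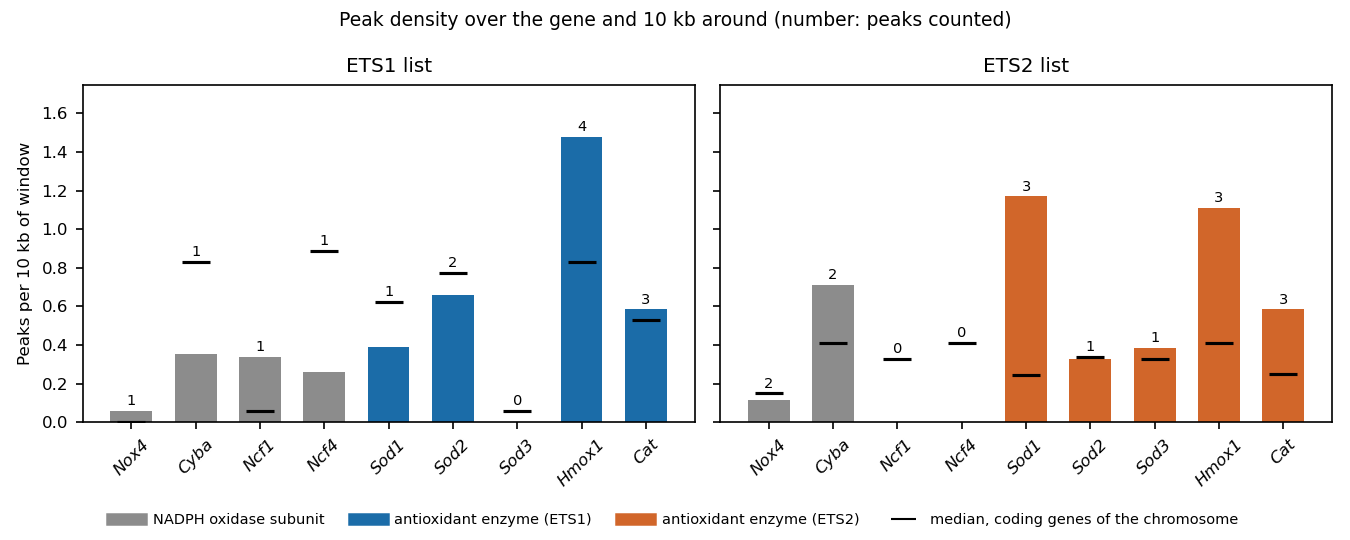
ETS1 (left) and ETS2 (right) peaks per 10 kb of each member's window, with subunits in grey and enzymes in colour; the number above each bar or dash is the count of peaks and the black dash is the median over protein-coding genes of the same chromosome. Hmox1 has the highest ETS1 bar, at 1.48, and Sod1 the highest ETS2 bar, at 1.17.

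The median density of a gene window showed the same order, with 0.299 for the subunits and 0.585 for the enzymes in the ETS1 list. Over the gene span alone these ETS1 medians were 0.555 and 0.64. In the ETS2 list the medians were 0.0574 and 0.585. Over all protein-coding genes the medians were 0.336 and 0.279. The groups overlapped gene by gene: Sod3 had no ETS1 peak, below every subunit, and Cyba, at 0.71 ETS2 peaks per 10 kb, lay above Sod2, Sod3 and Cat. Peaks are spread unevenly over the chromosomes, and relative to the mean density of coding loci on their own chromosome the ETS1 values were 0.224 to 1.6 for the subunits and 0 to 1.38 for the enzymes. The ETS2 values relative to the chromosome were 0 to 1.25 and 0.573 to 3.08. On this scale the medians were 0.311 for the subunits and 0.596 for the enzymes in the ETS1 list, and 0.148 and 1.42 in the ETS2 list.

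The enzyme peaks also stood earlier in the lists. Peaks within 1 kb of the listed start of an enzyme gene, or of either end of Sod3 and Hmox1, numbered 8 over the 5 genes and stood at 3.61% to 28.3% of the order. Those of the subunits, 3 peaks at Nox4 and Cyba, stood at 46.6% to 92.8%. The Cyba peaks belong to the same shared site, and the share of all such peaks that fall in either range was not computed. These peaks are too few to tell the groups apart. Over all protein-coding genes with a listed start, the median place of such peaks was 27.8% for ETS1 and 29.9% for ETS2. Away from the starts the groups mixed, with subunit peaks at 41.5% (Ncf1) and 45.7% (Nox4) and enzyme peaks at 73.6% (Cat) and 99.2% (Sod1). That the order follows peak height was not shown by the files.

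**Figure D4:**
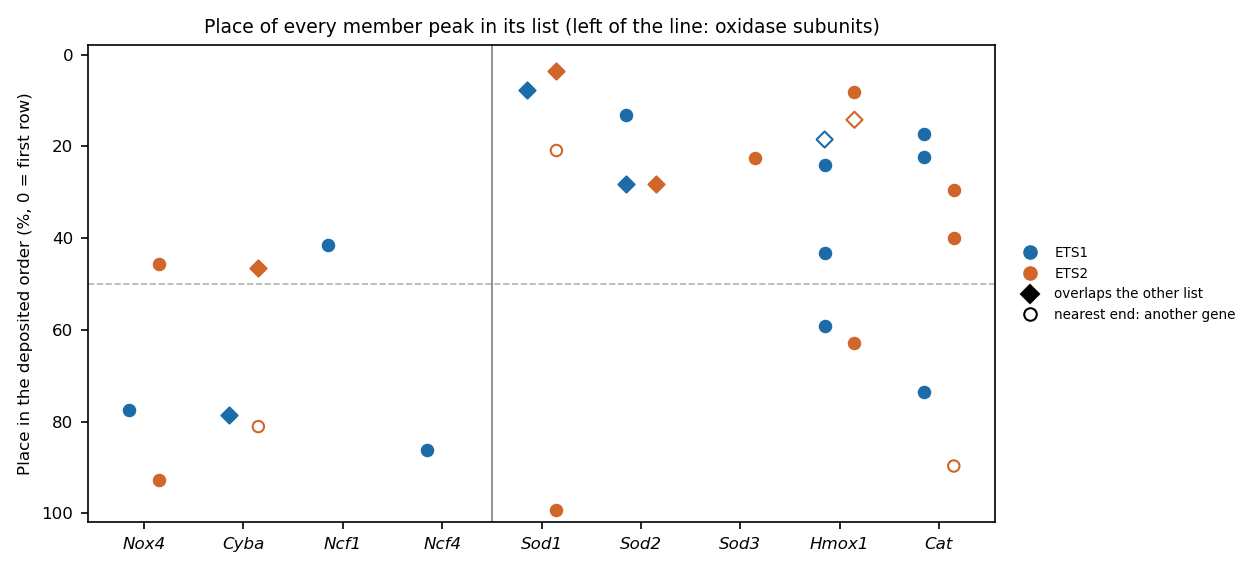
Place of each of the 29 member peaks in its deposited list (vertical axis in %, with the first row at the top), for oxidase subunits left of the line and antioxidant enzymes right of it; diamonds overlap a peak of the other list and open symbols are nearer to an end of another gene. The Sod1 start peaks stand highest, at 3.61% and 7.72%, and no subunit peak stands above 41.5%.

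Member peaks at listed starts all lay on the transcribed side. The 5 ETS1 centres stood 83 to 467 bp after the start and the 4 ETS2 centres 76 to 257 bp after it. Over all protein-coding genes, 62.1% of ETS1 and 62.0% of ETS2 centres within 1 kb lay after the start, at medians of 131 and 122 bp, so the member offsets fall where such peaks are commonly found.

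A wider view of the pathway came from 53 other genes in 5 lists. The lists were written with earlier results of these data known, so their shares cannot show an excess over other genes. An ETS1 peak lay over 43 of them and an ETS2 peak over 43, or 81.1% each, beside 65.5% and 64.5% of protein-coding genes. At a start, 29 (54.7%) had an ETS1 and 31 (58.5%) an ETS2 peak, beside 38.9% and 40.1%. The median density was 1.12 and 0.552 peaks per 10 kb, beside 0.336 and 0.279 over all protein-coding genes. Whether these genes differ from others of like expression was not tested.

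The other catalytic subunits were the least marked, with a peak over 2 of 5 loci in each list, beside 65.5% (ETS1) and 64.5% (ETS2) of protein-coding genes. Nox1 and Cybb (the phagocyte NOX2) had none, and both lie on the X chromosome, where the share of protein-coding genes with a locus peak was 4.87% for ETS1 and 1.45% for ETS2. The third without a peak was Nox3 on chromosome 17. Duox1 and Duox2, which with Nox3 were chosen for naming after their values were seen, were marked, and they are neighbours, and their windows share peaks with those of their maturation factors Duoxa1 and Duoxa2 in the next list. Among 12 partners and regulators, 11 had an ETS1 and 9 an ETS2 peak over the locus, and 4 and 4 had one at a start, beside the same shares over the locus and 38.9% and 40.1% at a start. Noxo1, the organiser subunit of NOX1, had a shared site there.

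Peroxidase and peroxiredoxin genes, which remove peroxides, had a start peak in 7 of 11 (ETS1) and 8 of 11 (ETS2), with a shared site at 5. The shares over all protein-coding genes were 38.9%, 40.1% and 19.7%. Gpx1 on chromosome 9 had 2 shared sites, at 353 and 939 bp after its start by the ETS1 centres. Gpx4, which reduces lipid peroxides, and Prdx2 also had one. Gpx3, the plasma enzyme, and the X-linked Prdx4 had no peak over their loci. The 12 thioredoxin and glutathione genes all had peaks of both lists over the locus (55.8% of protein-coding genes). At a start, 10 had an ETS1 peak (38.9%) and 9 an ETS2 peak (40.1%). Txn1 on chromosome 4, which encodes cytosolic thioredoxin, had an ETS1 peak at 57956086 to 57956262 that stood at 0.137% of the order and overlapped an ETS2 peak at 2.22%. Txn2 and Txnrd1 also had shared sites at a start.

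Of 13 genes of haem breakdown, copper delivery and NRF2 control, 8 had an ETS1 peak at a start (38.9% of protein-coding genes) and 9 an ETS2 peak (40.1%). Atox1, a copper chaperone, had a shared site at 188 (ETS1) and 214 bp (ETS2) after its start, at 8.59% and 2.44% of the order. Nfe2l2, which encodes NRF2, had one ahead of its start, with centres at -302 (ETS1) and -393 bp (ETS2) from it, and Mafg, an NRF2 partner, had one after its start. Atp7a, the X-linked copper transporter that loads SOD3, had no peak over its locus.

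**Figure D5:**
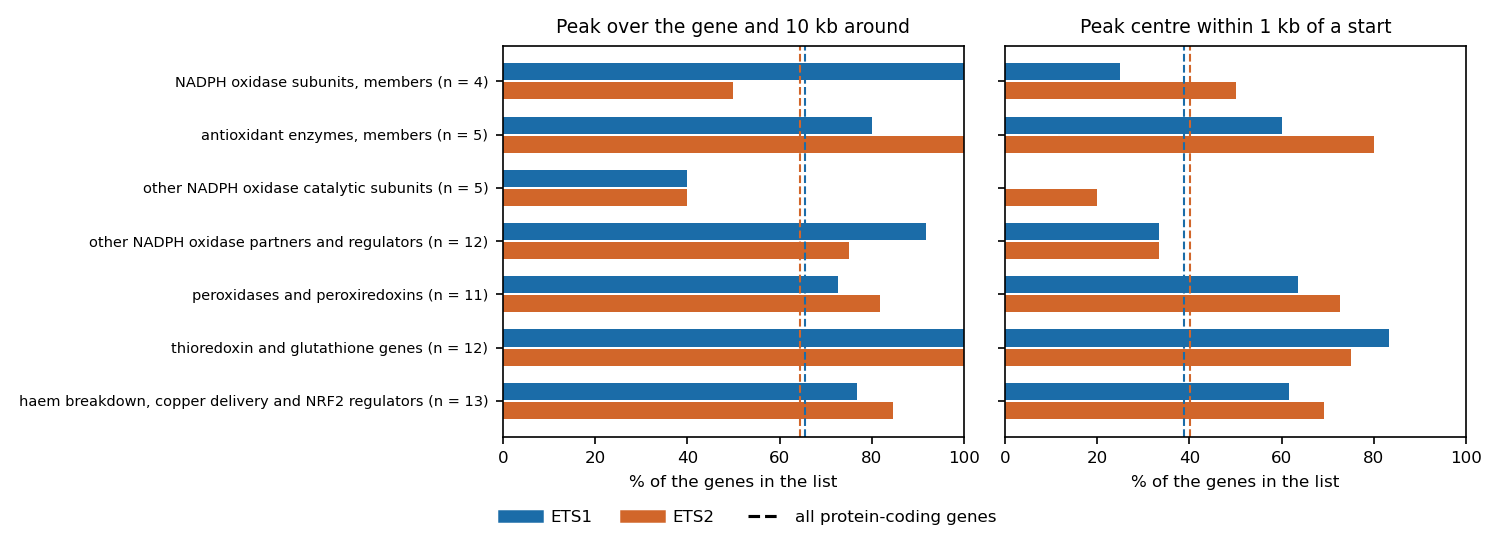
Share of genes in each list with a peak over the gene and 10 kb around (left) and with a peak centre within 1 kb of a listed start, or of either end where no start is listed (right), for ETS1 (blue) and ETS2 (orange); dashed lines are the shares of all 21887 protein-coding genes. The thioredoxin and glutathione list has the highest ETS1 share at a start, 83.3%, and the other catalytic subunits the lowest, with 0 of 5 genes.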

How the data were processed

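The tools named in the submitters' processing notes are HOMER, Bowtie2 and CASAVA 1.8, and the builds are mm9 and mm10. Per the file headers, peaks were called per library with HOMER findPeaks in factor style from mm10 tag directories, without a control directory, at a false discovery rate of 0.01 and 30 tags. In the deposited files the score is 1 in every row, so it was not used. The other deposited columns used are peak starts and ends (width 177 bp for ETS1, 187 bp for ETS2), given here 1-based. Total tags came from the headers.

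Gene spans and starts came from RefSeq tables of GRCm38.p6, and all 62 listed genes matched by symbol, 51 with a listed start. Peaks were counted over each gene and 10 kb around with Python 3.11.15 and pandas 2.3.3, and the interval search was tested on simulated data. Peaks on chromosomes 1 to 19, X and Y were used. No test was run, since each antibody has 1 library. Of the other listed genes, the text names in list order up to 3 per list with a shared site at a start and up to 2 with no peak. The members and lists were chosen with earlier results of these data known. Alternatives changed the window, the counting of peaks, the overlap, the distance to a start, the scaling and the part of the order used.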

Additional observations from a re-analysis of the deposited data

How the results depend on the processing

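Of 77 values recomputed under alternative settings, 67 stayed within 1.5 times the reported value. With the gene span alone, the member loci held 8 ETS1 and 8 ETS2 peaks, and the median ETS1 density was 0.555 per 10 kb for the subunits and 0.64 for the enzymes, closer together than the reported 0.299 and 0.585. Within 25 kb around the gene there were 33 ETS1 peaks, and the median ETS2 density was 0.369 for the enzymes and 0.049 for the subunits. In the first 50% of the deposited order 5 members had an ETS1 peak, with 9 ETS1 peaks in all. The share of all protein-coding genes with a peak in that part of the order was not computed. Divided by the mean density of coding loci on the chromosome, which changes the unit to a ratio, the ETS2 medians were 0.148 for the subunits and 1.42 for the enzymes. Among settings chosen after seeing the data, leaving out Nox4 took the subunits' median ETS2 density to 0, since Ncf1 and Ncf4 had no peak. With Hmox1 also left out, the enzymes' median ETS2 density was 0.485. The ETS1 medians were then 0.338 for the subunits and 0.488 for the enzymes, closer together than reported. Leaving out the 5 peaks nearest to another gene left 13 ETS1 and 11 ETS2 peaks and a shared site at 3 members. The matching share of all protein-coding genes was not computed for this setting either. No paired analysis was possible because each antibody has 1 library. Peaks under 30 tags were not called, so an absent peak does not show that a site had no signal, and intervals cover counting error only.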

Other observations

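Shared sites also lay beyond the 10 kb limit, at listed starts of neighbouring genes. Mvd, a mevalonate pathway gene next to Cyba, had a shared site 405 (ETS1) and 414 bp (ETS2) from its listed start. The ETS1 peak of this site (chromosome 8, 122443739 to 122443915) was row 172 of the list, at 0.223% of the order. It lies 10799 bp outside Cyba. Wtap, a gene of the RNA methylation complex next to Sod2, had a shared site 76 and 143 bp from its listed start, at 6.85% and 51.9% of the order. These peaks lie 15132 (ETS1) and 15060 bp (ETS2) outside Sod2.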
